A study of Mus musculus with 2 samples.

Results

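The expression of 10 heat shock genes was followed in mouse urothelial organoids. Hspa1a, Hspa1b, Hspb1, Hsph1, Hsp90aa1, Dnaja1 and Dnajb1 were treated as the inducible group of 7, and Hspa8, Hsp90ab1 and Hspa5 as the constitutive group of 3. They were chosen by name and made up 10 of the 31053 gene identifiers in the count matrices. The organoids grew from normal urothelium of wild type C57BL/6 mice aged 8 to 10 weeks. Proliferative organoids (P) were held in complete medium, which contains LY2157299 (a blocker of TGF-β receptor signalling), Noggin, EGF, RSPO1 and WNT3A, and differentiated organoids (D) had been moved to a medium without these 5 components. Both were dissociated with enzymes to single cells and sequenced with the 10x Genomics 3′ v3 chemistry. Each group was 1 library from unsorted cultures, so no difference had a replicate check, no p-value was computed, and every interval given is a 95% interval for counting error only.

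Heat shock proteins are chaperones, which bind unfolded or newly made proteins and help them fold. HSP70 proteins (Hspa genes) work in cycles of ATP binding and release, driven by J-domain partners (Dnaj genes) and reset by nucleotide exchange factors such as HSPH1. HSP90 proteins (Hsp90 genes) act later, on signalling proteins that are almost folded, and small heat shock proteins such as HSPB1 hold unfolded proteins without ATP. Heat and other protein-damaging stress free the transcription factor HSF1, which binds inverted repeats of GAA, the heat shock element, and switches on the inducible genes. Hspa8 and Hsp90ab1 are made at high level in unstressed cells. Hspa5 encodes BiP, the HSP70 of the endoplasmic reticulum, and answers to the unfolded protein response instead.

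The heat shock element core was searched as GAANNTTC or TTCNNGAA, each of which reads the same on both strands, and the endoplasmic reticulum stress element as CCAAT, 9 bases of any kind and CCACG on either strand. RefSeq promoter windows (GRCm38.p6, from 250 bases before to 50 after a transcription start) were held for 7 of the 10 genes, all but Hspa8, Hsp90aa1 and Hsp90ab1. A heat shock core was found in at least 1 window of 5 of the 7 genes (Hspa1a, Hspa1b, Hspb1, both windows of Hsph1 and 1 of 3 of Dnaja1), beside 17.0% of the 27025 genes in the set and 15.1% of its 32851 windows. Of the 3 cores of Hsph1, 2 overlap. The stress element was found in Hspa5 alone of the 7, beside 0.137% of genes and 0.119% of windows. Neither was found in the 2 windows held for Dnajb1. A match to these letters is a description of the window and not a measured binding site. One window with a match is shown for each gene because these genes are compared with each other and with Dnajb1 in what follows, and capitals mark the matched letters. The other window of Hsph1 (chr5:149636266-149636565, minus strand) holds the same 3 cores and is not shown. The windows lie at chr17:34972107-34972406 (minus strand, Hspa1a), chr17:34959189-34959488 (minus strand, Hspa1b), chr5:149636287-149636586 (minus strand, Hsph1), chr4:40722218-40722517 (plus strand, Dnaja1), chr5:135887669-135887968 (plus strand, Hspb1) and chr2:34771840-34772139 (plus strand, Hspa5).
Hspa1a: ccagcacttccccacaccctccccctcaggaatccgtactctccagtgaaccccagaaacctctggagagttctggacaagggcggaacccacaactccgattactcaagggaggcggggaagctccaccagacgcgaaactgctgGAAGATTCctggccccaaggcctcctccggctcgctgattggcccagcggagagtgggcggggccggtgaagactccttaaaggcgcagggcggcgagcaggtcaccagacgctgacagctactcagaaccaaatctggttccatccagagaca
Hspa1b: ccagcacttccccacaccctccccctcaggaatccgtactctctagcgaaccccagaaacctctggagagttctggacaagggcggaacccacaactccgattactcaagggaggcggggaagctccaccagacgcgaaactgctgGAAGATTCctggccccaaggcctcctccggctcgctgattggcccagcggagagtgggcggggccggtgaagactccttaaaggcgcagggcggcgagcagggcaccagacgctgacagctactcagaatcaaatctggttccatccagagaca
Hsph1: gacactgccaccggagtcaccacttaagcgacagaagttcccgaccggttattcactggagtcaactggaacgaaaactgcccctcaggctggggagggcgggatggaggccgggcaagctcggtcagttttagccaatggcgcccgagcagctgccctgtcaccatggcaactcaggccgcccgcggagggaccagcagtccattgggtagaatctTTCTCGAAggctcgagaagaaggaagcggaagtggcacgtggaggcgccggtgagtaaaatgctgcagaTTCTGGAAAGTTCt
Dnaja1: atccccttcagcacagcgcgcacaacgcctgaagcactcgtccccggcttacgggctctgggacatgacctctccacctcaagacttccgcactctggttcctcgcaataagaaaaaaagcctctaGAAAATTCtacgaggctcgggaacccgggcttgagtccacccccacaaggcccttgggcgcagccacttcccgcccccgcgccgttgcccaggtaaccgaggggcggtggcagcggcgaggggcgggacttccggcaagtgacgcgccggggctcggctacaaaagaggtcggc
Hspb1: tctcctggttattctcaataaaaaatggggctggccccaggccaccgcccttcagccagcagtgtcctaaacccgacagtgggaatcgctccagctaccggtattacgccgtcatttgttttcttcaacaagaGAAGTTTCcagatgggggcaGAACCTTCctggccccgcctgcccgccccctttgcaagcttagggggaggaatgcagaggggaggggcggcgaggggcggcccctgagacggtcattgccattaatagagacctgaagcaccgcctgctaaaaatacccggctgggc
Hspa5: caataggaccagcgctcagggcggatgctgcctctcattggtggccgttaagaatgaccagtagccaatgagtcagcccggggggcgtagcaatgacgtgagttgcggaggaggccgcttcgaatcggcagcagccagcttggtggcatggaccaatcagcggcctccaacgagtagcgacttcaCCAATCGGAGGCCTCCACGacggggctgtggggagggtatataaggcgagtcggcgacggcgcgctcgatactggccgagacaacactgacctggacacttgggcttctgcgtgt

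Hspa1a and Hspa1b, the stress-inducible HSP70 genes, had promoters identical at 296 of 300 bases. The differences from Hspa1a to Hspa1b were C44T, T47C, T249G and C276T, counted from 1 at the 5′ end of the window, and none fell in the matched core. Both genes have 1 exon and lie 9952 bases apart on chromosome 17 (34969190 to 34972156 for Hspa1a and 34956436 to 34959238 for Hspa1b, GRCm38). Of all 56-base stretches of the Hspa1a transcript, the length of the read that covers the transcript, 57.3% also occurred in Hspa1b. Of the 445 stretches in the last 500 bases 0 did, and the nearest shared one ended 786 bases before the 3′ end. Reads from the last 500 bases would thus separate the pair, but the counts do not show where reads fell. Counts of the pair were read first as a sum, called Hspa1 here, and then apart. Hspa8 had the reverse pattern: 81.6% of the stretches in its last 500 bases occurred in other genes, most of them in the pseudogene Gm15459, which has no row in the matrices. The share was 14.2% for Hspb1, 6.52% for Hsp90ab1 and 0 for the other 7 genes, so levels of Hspa8 and, less so, of Hspb1 and Hsp90ab1 carry that uncertainty. The other genes lie at chr5:135887919-135889563 (Hspb1), chr5:149614287-149636376 (Hsph1), chr12:110690605-110702728 (Hsp90aa1), chr4:40722150-40737149 (Dnaja1), chr8:83608193-83612653 (Dnajb1), chr9:40800984-40810087 (Hspa8), chr17:45567775-45573271 (Hsp90ab1) and chr2:34771970-34777547 (Hspa5), each protein-coding with 3 to 19 exons.

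The kept cells had more than 800 genes detected and no more than 12% of their unique molecular identifiers (UMIs, 1 per captured RNA molecule) from mitochondrial genes, which left 6818 of 8194 barcodes in P and 4896 of 6975 in D. They held 26681469 and 20305621 UMIs, with a median of 3405.5 and 3227.5 UMIs per cell. In all, 6 barcode sequences of kept cells occurred in both libraries. Uroplakins and proliferation genes fitted the labels. All 5 uroplakins, the plaque proteins of the urothelial surface, were higher in D (20.5 against 1245 CPM, counts scaled to a library total of 1000000 UMIs, when summed). All 12 proliferation genes were higher in P (289.8 against 32.3 CPM). The 7 listed markers of basal cells were not lower in D as a set on this scale. Their summed level rose from 6021 CPM (P) to 8292 CPM (D), with 4 genes higher in D and 3 lower. Krt14 had the largest log2 ratio of D over P among them, 1.07. The P library gave 37.4% of its UMIs to ribosomal protein genes and the D library 21.4%, and the median log2 ratio of D over P across 8939 genes was 0.42. For this reason ratios of whole libraries are stated in CPM first and then with the shift subtracted. After subtraction 6 of the 7 basal markers lay below 0, and Krt14 stayed above it at 0.65.

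The inducible genes were higher in D, with the exception of Hspb1. Hspa1 was counted at 80.6 CPM (77.2 to 84.1) in P and 156 CPM (150.1 to 161) in D, a log2 ratio of D over P of 0.95 (0.87 to 1.03). Hspa1b was at 68.3 CPM in P and 135 CPM in D (0.98, 0.90 to 1.07) and Hspa1a at 12.3 and 20.5 CPM (0.74, 0.52 to 0.95). These are sums over cells, in which fewer expressing cells and less RNA per cell cannot be told apart. Hspa1a gave 15.2% (13.8 to 16.8) of the Hspa1 UMIs in P and 13.2% (12.01 to 14.4) in D, with overlapping intervals.

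Hsph1, the HSP110 exchange factor that resets HSP70, stood at 7.50 CPM (6.49 to 8.61) in P and 25.1 CPM (23.0 to 27.4) in D. Its log2 ratio of 1.74 (1.51 to 1.99) was the largest of the 10, with a percentile of 96.3 among the 10719 genes whose UMIs came to 100 or more in P and D combined. Dnaja1, a J-domain partner that carries clients to HSP70, went from 122 CPM (118 to 126) in P to 307 CPM (299 to 315) in D, a log2 ratio of 1.33 (1.27 to 1.39). Dnajb1, a heat-induced J-domain partner of HSP70, went from 55.2 CPM (52.4 to 58.1) to 115 CPM (111 to 120.2), a log2 ratio of 1.06 (0.97 to 1.16). Hsp90aa1, the inducible HSP90, was at 166 CPM (161 to 171) in P and 272 CPM (265 to 279) in D (0.71, 0.66 to 0.77). These genes have different lengths and abundances, and the comparison is of each with itself between libraries.

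Hspb1, which encodes the small heat shock protein HSP25, went the other way. It stood at 1218 CPM (1205 to 1232) in P and 937 CPM (924 to 950.3) in D, a log2 ratio of -0.38 (-0.40 to -0.35), and its promoter window is one of those with a heat shock core. Among the constitutive genes, Hsp90ab1, the housekeeping HSP90, was also lower in D, at 2668 CPM (2649 to 2688) in P and 2080.1 CPM (2060.3 to 2100.1) in D (-0.36, -0.38 to -0.34). Hspa8, the housekeeping HSP70 known as HSC70, was at 630.2 CPM (621 to 639.8) and 787 CPM (775 to 799.6), a log2 ratio of 0.32 (0.29 to 0.35). Hspa5 was at 153 CPM (148 to 158) and 206 CPM (199 to 212), a log2 ratio of 0.43 (0.36 to 0.49).

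On the CPM scale 3 of the 10 genes (Hsph1, Dnaja1 and Dnajb1) were at least 2-fold higher in D, beside 13.4% of the 10719 genes, and 0 were at least 2-fold lower, beside 4.73%. After the shift was subtracted 1 gene, Hsph1, remained at least 2-fold higher (1.32, 1.08 to 1.57), beside 5.62%, and 0 were at least 2-fold lower, beside 8.62%. The median of the inducible group was 0.98, and 0.56 after subtraction, with 6 of 7 above 0 on both scales, where 77.4% and 49% of all genes lay above 0. The constitutive group had a median of 0.32 with 2 of 3 above 0, and -0.10 with 1 of 3 above 0 after subtraction. Hspa8 changed sign between the scales (0.32 and -0.10) and Hspa5 came to 0.01 (-0.06 to 0.07), while Hspb1 (-0.80) and Hsp90ab1 (-0.78) lay further below 0. The median over all 10719 genes was 0.41 before subtraction. When mitochondrial and ribosomal protein UMIs were left out of the totals, the inducible median was 0.65, the ratio of Hspa1 0.61 and that of Hspa8 -0.014.

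**Figure D1:**
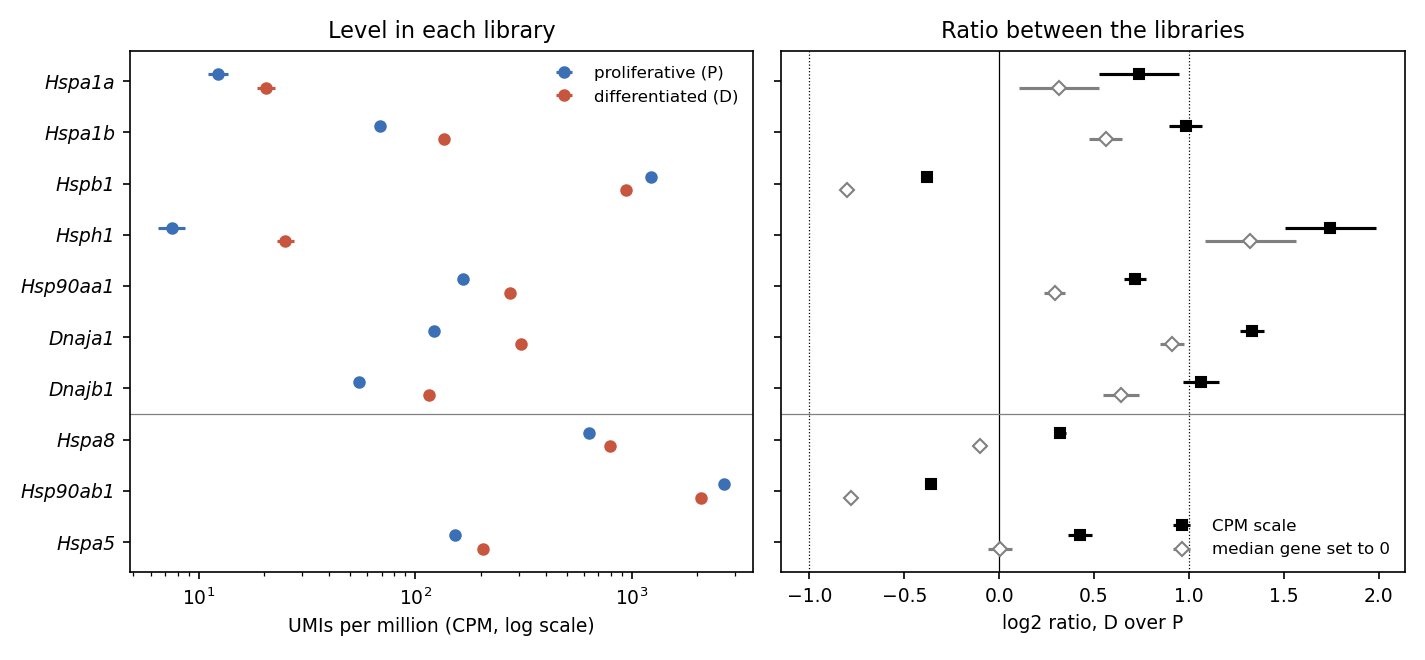
Left, level of each heat shock gene in the P and D libraries in CPM on a log axis, with 95% Poisson intervals (inducible genes above the grey line, constitutive below). Right, log2 ratio of D over P on the CPM scale (squares) and with the median gene set to 0 (diamonds), with counting intervals and dotted lines at 2-fold; Hsph1 is highest at 1.74 and 1.32, and Hspb1 and Hsp90ab1 lie below 0 on both scales.

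Other stress and marker genes moved between the same libraries. The 14 early-response genes, which are switched on quickly by many stimuli, the dissociation of tissue among them, summed to 1674 CPM in P and 3470.2 CPM in D. Their log2 ratios had a median of 1.30 (0.88 after subtraction), and 8 of 14 genes were at least 2-fold higher, beside 13.4% of all genes, with 6 of 14 beside 5.62% after subtraction. The largest were Atf3 (2.26), Nr4a1 (1.91), Dusp1 (1.88) and Egr1 (1.64), and Socs3 was lower (-1.27). Mitochondrial genes took 5.91% of kept UMIs in P and 7.13% in D. Fibroblast markers summed to 1.99 CPM in P and 62.5 CPM in D, most of it Dcn (40 and 1234 UMIs), with Col1a1 and Col3a1 at 0 UMIs in P and 10 and 19 in D. The other fibroblast markers were not higher in D, with Lum at 7 and 1 UMIs and Pdgfra at 6 and 6. Leukocyte markers summed to 0.600 and 19.9 CPM, in D mostly Laptm5 (7 and 400 UMIs), with Ptprc at 1 and 2 UMIs. Fcer1g was at 6 and 1 UMIs, Cd74 at 2 and 1 and Tyrobp at 0 and 0. Both sums in D thus rested mainly on a single transcript. Endothelial markers summed to 5.17 and 3.30 CPM with Cdh5 and Kdr at 0, and all 4 globins were at 0. The part of the fibroblast and leukocyte transcripts in the heat shock values was not tested.

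A list of heat shock factors, chaperone partners and other heat shock proteins lay closer to the typical gene than the inducible genes. It includes small heat shock proteins and other HSP70 family members, so its values are not those of partners alone. Of its 31 genes, 30 had at least 100 UMIs. Their median log2 ratio was 0.42, and -0.00 after subtraction, with 15 above and 15 below 0, where 49% of all genes lay above 0. At least 2-fold higher were 2 of the 30, beside 13.4% of all genes, and 0 after subtraction, beside 5.62%. These were Hsf2, another heat shock factor (5.70 CPM in P and 13.4 in D, log2 1.23, 0.94 to 1.53), and Hspbp1, an exchange factor for HSP70 (6.18 and 13.4 CPM, 1.12, 0.84 to 1.41). Hsf1 itself was at 10.6 and 18.6 CPM (0.80, 0.58 to 1.03), and at 0.38 after subtraction.

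The TRiC chaperonin, the ring that folds actin and tubulin, lay below the typical gene. Its 7 subunits in the matrices had a median log2 ratio of -0.38 (-0.81 after subtraction), with 6 of 7 below 0 on both scales, where 77.4% and 49% of all genes lay above 0. Values ran from -0.82 for Cct4 (294 CPM in P and 167 in D) to 0.67 for Cct3 (83.1 and 132 CPM). The 6 mitochondrial chaperones had a median of 0.22 and of -0.21 after subtraction, when all 6 were below 0, where 49% of all genes lay above 0, among them Hspe1, the lid of the mitochondrial folding chamber, at 436 CPM in P and 315 in D. The 21 genes of the endoplasmic reticulum and unfolded protein response had a median of 0.40 and of -0.02 after subtraction, so the list sat with Hspa5 near the typical gene. Sdf2l1, a partner of BiP (7.27 and 17.6 CPM, log2 1.28, 1.02 to 1.54), was the 1 member at least 2-fold higher, beside 13.4% of all genes. After subtraction it came to 0.86, and 0 of the 21 were at least 2-fold higher, beside 5.62%. Ddit3, which encodes the stress factor CHOP, was lower in D (28.8 and 15.4 CPM, -0.90). After subtraction Ddit3 was at -1.32, where 8.62% of all genes were at least 2-fold lower.

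Shares of cells with a UMI depend on depth, so each cell was thinned at random to 2100 UMIs, which left 6638 cells in P and 4417 in D, without 180 and 479 shallower cells. In D this loss was uneven between the cell clusters described below. Hspa1 was detected in 14.4% (13.6 to 15.3) of thinned cells in P and 26.4% (25.1 to 27.7) in D, and in 24.6% and 41.7% of the unthinned cells. Hsph1 was detected in 1.63% of thinned cells in P and 5.30% in D, Dnaja1 in 21.8% and 46.6%, and Dnajb1 in 10.5% and 21.4%. Hsp90aa1 was detected in 27.4% and 41.4%, Hspa5 in 25.3% and 35.7%, and Hspa8 in 66.5% and 78.5%. Thinning evens the UMI totals and does not remove the shift of the typical gene between the libraries. Hspa5 and Hspa8 had larger shares in D, although their ratios after subtraction were 0.01 and -0.10. No share over all genes was set beside these values. The shares of Hspb1 (82.2% and 81.1%) and Hsp90ab1 (98.9% and 98.5%) were close between libraries. No cell type in these organoids is known to lack these transcripts, so no background share from free RNA could be set beside them. At least 2 UMIs of Hsp90ab1 were held by 94.7% of cells in P and 92.1% in D, and at least 2 of Hspb1 by 59.3% and 54.6%.

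**Figure D2:**
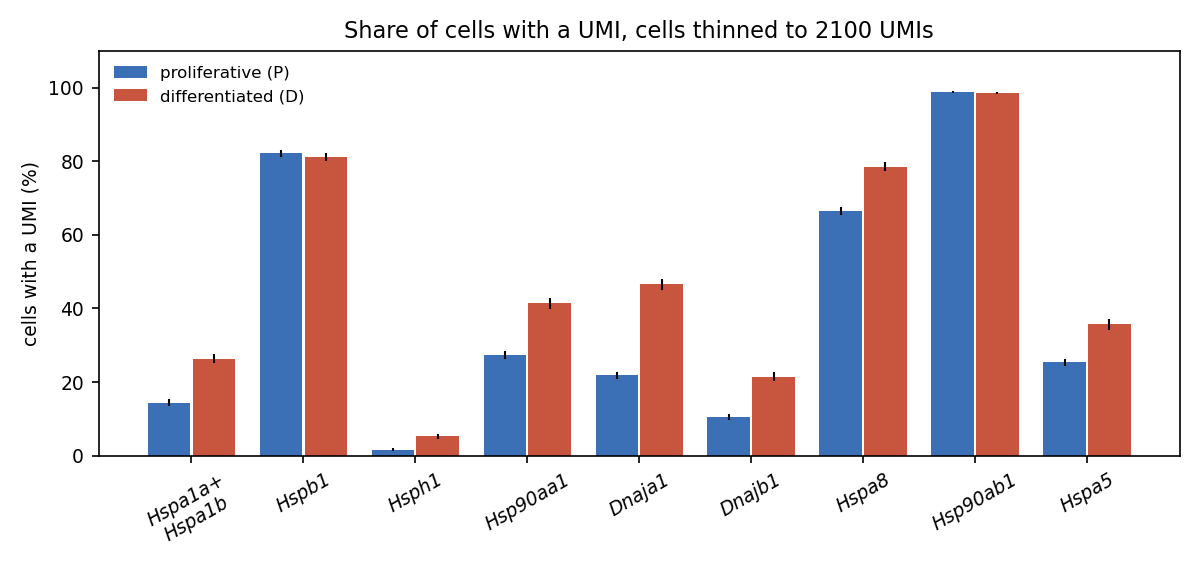
Share of cells with at least 1 UMI of each heat shock gene, in percent, after every cell was thinned to 2100 UMIs (6638 cells of P in blue, 4417 of D in red), with exact binomial 95% intervals. Hspa1a and Hspa1b summed were found in 14.4% of P and 26.4% of D cells, and Hsp90ab1 in over 98% of both. Thinning does not remove the shift of the typical gene between the libraries.

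Hspa1 UMIs were spread thinly over many cells, with no cells far above the rest. In P, 862 of the 6638 thinned cells held 1 Hspa1 UMI, 87 held 2, 9 held 3 and 0 held more. In D, 978 of 4417 held 1, 158 held 2, 25 held 3, 3 held 4 and 1 held 5. The ratio of variance to mean over cells was 1.05 in P and 1.06 in D, near the value of 1 that random sampling of a uniform level gives. At means of 0.16 and 0.31 UMIs per cell the ratio can barely show differences between cells. It was also near 1 for Hsph1 (0.984 and 1.02) and Dnaja1 (1.04 and 1.03). The ratio was larger for Hspb1 (2.26 in P and 1.47 in D), Hspa8 (1.56 and 1.22) and Hsp90ab1 (1.63 and 1.17), whose levels are higher, which itself makes the ratio respond more to differences between cells. Hspa5 reached 1.35 in P, where 2 cells held 19 and 11 of its UMIs and the next 5. Without those 2 cells the ratio was 1.15.

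No other heat shock gene was 2-fold higher or lower in cells with Hspa1 UMIs, beside 0.0379% of genes higher and 0.215% lower in P and 0.0531% each in D. Thinned cells with an Hspa1 UMI (958 in P and 1165 in D) were set against those without. Dnajb1 was at 61.6 CPM with and 52.6 without in P (log2 0.23, -0.06 to 0.51) and at 124 and 119.8 CPM in D (0.05, -0.15 to 0.24). Hsp90aa1 (145 and 169 CPM, -0.22, -0.41 to -0.05) and Hspa8 (576 and 676 CPM, -0.23, -0.32 to -0.14) were lower in the positive cells of P, while in D the intervals of both included 0 (-0.09, -0.23 to 0.04 and 0.01, -0.07 to 0.08). Hspb1 was slightly higher in the positive cells of P (0.08, 0.02 to 0.14). For the summed early-response UMIs both intervals included 0 (P -0.00, -0.05 to 0.05, and D 0.01, -0.02 to 0.05). The levels rest on 1 UMI in most positive cells, so small differences were not detectable at this depth. Hspa1a was detected in 4.52% (3.20 to 6.17) of cells with an Hspa1b UMI and 2.39% (2.01 to 2.81) of those without in P, and in 4.55% (3.36 to 6.00) and 3.87% (3.25 to 4.58) in D.

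Genes whose counts followed Hspa1 from cell to cell were named by the largest Pearson correlation of log-normalised thinned counts, and all correlations were weak. In P, over 6638 cells and 2746 genes, they were Gsta4 (0.108), Gsto1 (0.0960), Krt19 (0.0920), Ly6d (0.0904) and Krt6a (0.0888). In D, over 4417 cells and 2459 genes, they were Krt5 (0.0919), Ly6d (0.0675), Clip4 (0.0542), Krt6a (0.0537) and Lypd3 (0.0537). Cells of 1 library share its handling and depth, and a weak correlation in sparse counts is no finding.

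To follow cell states, each library was clustered with the heat shock, chaperone and endoplasmic reticulum genes removed from the variable features. Clusters are written with the letter of the library. P0 held 2595 cells and was led by Ctla2a, Nbl1 and Scnn1b, P1 held 2529 and was led by Cyp2f2, Agr2 and Ccr2, and P2 held 1338 and was led by Sprr3, Sprr2f and Rptn, with all 9 intermediate markers raised. P3 (356 cells, led by Hmmr, Ccna2 and Nusap1) had all 12 proliferation markers raised and is called proliferating-like. D0 (2526 cells) was led by Reg1, Krt1 and Slurp1, D1 (1319 cells) by Acta2, Cav1 and Ms4a10, with 6 of 7 basal markers and all 11 detected proliferation markers raised. D2 (1051 cells) had all 5 uroplakins raised, 2 of them among its leading 10 genes, and is called luminal-like, although Ifit1bl1, Ubd and Ankrd1 led it. P0, P3 and D1 had more Trp63, Itgb4 and Col17a1 than their library as a whole and are called the basal side, after these transcripts of basal cells. Thinning kept 1046 cells of D1, 2337 of D0 and 1034 of D2, so thinned cells of D under-represent D1.

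Hspa8 differed between all neighbouring clusters of both libraries. Its level was 1018 CPM in P0, 479 in P1, 267 in P2 and 1203 in P3, so P3 was 4.51-fold above P2. In D it was 1048 CPM in D1, 669.7 in D0 and 782 in D2. Set against the other clusters, the basal side of P lay higher by 1.40 on the log2 scale (1.35 to 1.44), and that of D by 0.54 (0.49 to 0.59). Hspa8 in D1 and P0 differed by 0.04 (-0.01 to 0.10) on the CPM scale, an interval that includes 0. The median over 7940 genes in that comparison was 0.47, so Hspa8 lay below the typical gene there.

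Hsp90aa1 and Hsph1 followed the same order in P. Hsp90aa1 was at 217 CPM in P0, 123 in P1, 116 in P2 and 404 in P3, and at 227 in D0, 350.5 in D1 and 282 in D2. Its basal side ratio was 1.05 (0.96 to 1.14) in P and 0.48 (0.39 to 0.56) in D. Hsph1 was at 11.8 CPM in P0, 5.37 in P1, 3.66 in P2 and 16.0 in P3, and at 19.6, 35.1 and 26.2 in D0, D1 and D2, with ratios of 1.41 (0.99 to 1.83) and 0.64 (0.35 to 0.92). Intervals of P1 and P2 overlapped for both genes, and those of P0 and P3 for Hsph1. Hsp90ab1 was at 3503 CPM in P0 and 3189 in P3 against 2478 in P1 and 1841 in P2, a ratio of 0.63 (0.60 to 0.65), with 0.31 (0.27 to 0.34) in D.

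Hspa1 ran against that order. It was lowest in P0 at 53.1 CPM (48.1 to 58.4), with 74.7 (61.9 to 89.2) in P3, 87.2 (81.7 to 93.1) in P1 and 105 (96.9 to 113) in P2. In D it was 126 CPM (116 to 138) in D1, 155 (146 to 164) in D2 and 169.8 (161 to 179) in D0. The basal side had lower levels than the other clusters, with log2 ratios of -0.73 (-0.87 to -0.58) for P and -0.37 (-0.51 to -0.23) for D. On the CPM scale all 3 clusters of D were above all 4 of P. The median shift of 0.42 between the libraries was not subtracted here, and D1 and P2 differ by less than it. The Hspa1a part of the Hspa1 UMIs was 10.9% (8.97 to 13.1) in P1 and 19.7% (16.8 to 22.9) in P2, and between 12.2% and 13.9% in the clusters of D.

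Dnajb1 varied less between the clusters of P. It was at 53.7 CPM in P0, 53.9 in P1, 60.6 in P2 and 48.7 in P3, and the intervals of every pair of neighbours overlapped. In D it was at 129 CPM in D0, 117 in D1 and 98.5 in D2. Basal side ratios were -0.09 (-0.25 to 0.06) in P and 0.02 (-0.13 to 0.17) in D. Dnaja1 ranged from 97.8 CPM in P2 to 167 in P3 and from 281 in D0 to 339 in D1, with ratios of 0.25 (0.15 to 0.35) and 0.18 (0.10 to 0.27). Over all genes the basal side ratio had a median of 0.155 in P and 0.117 in D. The intervals of Dnaja1 include these medians, so it was not set apart from the typical gene. The ratios in D depended on how finely it was clustered. At resolution 0.4 that of Dnaja1 was -0.0029, so its direction was lost, and that of Dnajb1 was 0.30. At the same setting the ratio in D was -0.066 for Hspa1, 0.32 for Hspa8, 0.26 for Hsp90aa1, 0.53 for Hspb1 and 0.26 for Hspa5.

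The basal side ratios of Hspb1 and Hspa5 had opposite directions in P and D. Hspb1 was highest in P1 at 1561 CPM, with 1087 in P0, 851 in P2 and 1096 in P3, and was at 1028, 1072 and 748 CPM in D0, D1 and D2. P0 and P3 thus lay below P1 and above P2 for Hspb1, and its intervals in D0 and D1 overlapped. Hspa5 was at 120.2 CPM in P0, 153 in P1, 187 in P2 and 173 in P3, and at 193, 256 and 192 CPM in D0, D1 and D2. The basal side was lower in P and higher in D for Hspb1 (-0.25, -0.28 to -0.21 and 0.25, 0.20 to 0.30) and for Hspa5 (-0.36, -0.46 to -0.27 and 0.41, 0.31 to 0.51). At least 2-fold higher on the basal side of P were 3 of the 10 genes (Hspa8, Hsph1 and Hsp90aa1), beside 8.3% of 9486 genes, and 0 in D, beside 6.08% of 9398. At least 2-fold lower there were 0 in P, beside 6.04%, and 0 in D, beside 6.71%.

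**Figure D3:**
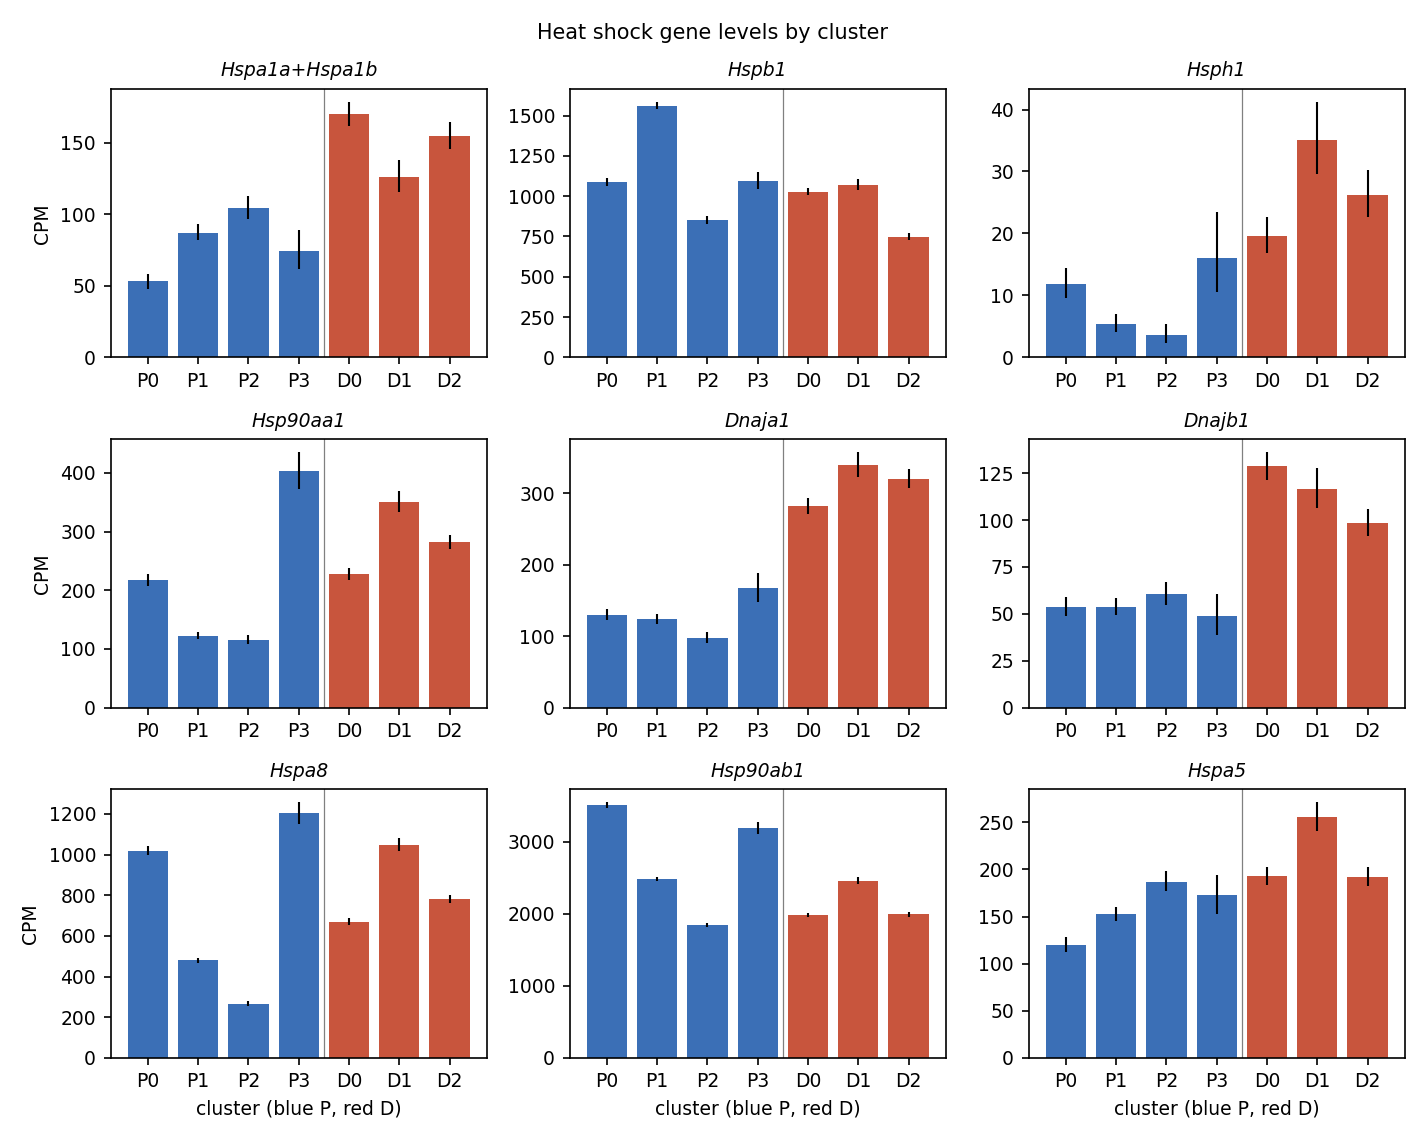
Level of each heat shock gene in CPM in the 4 clusters of P (blue) and the 3 of D (red), with 95% Poisson intervals; every axis starts at 0 and has its own scale. Hspa8 ran from 267 CPM in P2 to 1203 in P3, and Hspa1a and Hspa1b summed from 53.1 in P0 to 169.8 in D0.

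Levels were also compared between single clusters of the libraries, D1 with P0, both on the basal side, and D0 with P1, neither of which is. In D1 over P0 the log2 ratio was 1.25 (1.06 to 1.44) for Hspa1, 1.57 (1.19 to 1.97) for Hsph1, 1.39 (1.27 to 1.50) for Dnaja1, 1.12 (0.93 to 1.31) for Dnajb1 and 0.69 (0.59 to 0.79) for Hsp90aa1. Hspb1 was at -0.02 (-0.07 to 0.03), Hspa5 at 1.09 (0.96 to 1.22) and Hsp90ab1 at -0.51 (-0.55 to -0.48). Of the 7 inducible genes 4 were at least 2-fold higher (Hspa1b, Hsph1, Dnaja1 and Dnajb1), as was 1 of the 3 constitutive ones, Hspa5, beside 16.5% of 7940 genes with a median of 0.47. In D0 over P1 the ratios were 0.96 (0.84 to 1.08) for Hspa1, 1.87 (1.43 to 2.32) for Hsph1, 1.18 (1.08 to 1.28) for Dnaja1 and 1.25 (1.11 to 1.40) for Dnajb1, with Hspb1 at -0.60 (-0.64 to -0.57) and Hsp90ab1 at -0.32 (-0.35 to -0.30). Here 4 of the 7 inducible genes were at least 2-fold higher (Hspa1a, Hsph1, Dnaja1 and Dnajb1) and 0 of the constitutive ones, beside 11.8% of 8993 genes with a median of 0.42. These clusters were built in each library on its own and are not the same cells by design. Early-response genes summed to 2879 CPM in D1 and 1374 in P0, and to 4141 in D0 and 1809 in P1.

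Cycling cells, defined as thinned cells with at least 2 of 12 proliferation genes detected, numbered 349 in P and 15 in D. In P, Hsp90aa1 was at 364 CPM in cycling and 154 CPM in other cells (log2 1.24, 1.05 to 1.42), Hsph1 at 16.4 and 7.27 CPM (1.17, 0.17 to 2.04), Hspa8 at 1156 and 634 CPM (0.87, 0.76 to 0.97) and Dnaja1 at 164 and 117 CPM (0.49, 0.20 to 0.75). Those 4 genes and the other constitutive genes were thus higher in cycling cells, with Hsp90ab1 at 0.27 (0.21 to 0.33) and Hspa5 at 0.30 (0.04 to 0.55). The median over all genes was 0.17. The other cells include P1 and P2, so cycling and basal state cannot be told apart in these ratios. Of these genes only Hsp90ab1 was lower in P3 (3189 CPM) than in P0 (3503), both on the basal side. Hspa1 (-0.08, -0.51 to 0.32) and Dnajb1 (-0.06, -0.57 to 0.41) had intervals across 0. Hspb1 was lower in cycling cells (-0.15, -0.25 to -0.05), also in the 15 of D (-0.998, -1.84 to -0.28). At least 2-fold higher were 2 of the 10 genes, beside 6.88% of 7908. In the 15 cycling cells of D, Hsp90aa1 (1.17, 0.43 to 1.81) and Hspa8 (0.90, 0.46 to 1.31) had ratios on the same side, where 27% of genes were at least 2-fold higher.

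**Figure D4:**
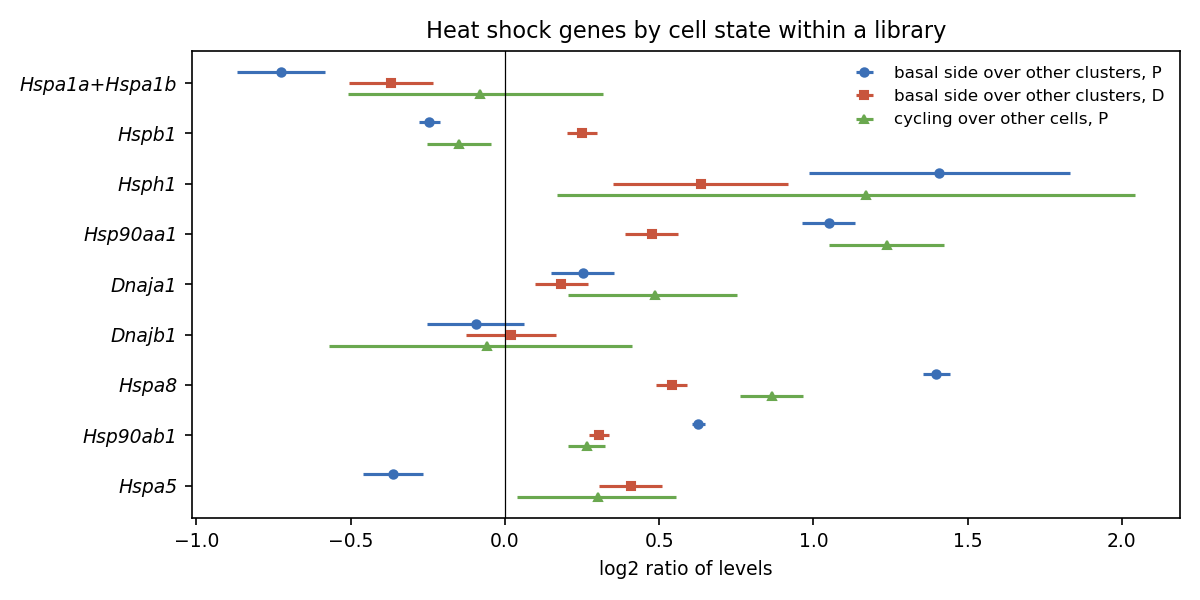
Log2 ratio of each heat shock gene between cell states within a library, with counting intervals at 95%: basal side over other clusters in P (blue circles) and D (red squares), and cycling over other cells in P (green triangles). Hspa8, Hsp90aa1 and Hsph1 lie above 0 in all 3, Hspa1a and Hspa1b summed lie below 0 on both basal sides, and Hspb1 and Hspa5 lie on opposite sides of 0 in P and D.

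Dnajb1 was higher in cells with more early-response UMIs, and Hspa8 lower. Thinned cells were divided by their summed early-response UMIs into 0, 1 to 2, 3 to 5, 6 to 10 and 11 or more. Dnajb1 was at 39.9, 43.9, 56.9, 68.9 and 101 CPM over these classes in P and at 62.3, 72.3, 82.9, 124 and 189 CPM in D. Hspa1 was at 80.6, 73.7, 77.6, 75.7 and 77.1 CPM in P and at 98.9, 159, 153, 145 and 153 CPM in D, where the lowest class rested on 130 cells and 27 UMIs. Hspa8 had the reverse order, from 837 to 406 CPM in P and from 1099 to 650.0 CPM in D. Cells with an early-response UMI were then set against those without. The log2 ratio of Dnajb1 was 0.47 in P (0.08 to 0.90), and in D it was 0.98 (0.29 to 1.76). For Hspa1 the same ratios were -0.09 (-0.37 to 0.21) and 0.61 (0.06 to 1.22), and for Hspa8 they were -0.38 (-0.47 to -0.29) and -0.47 (-0.64 to -0.30). At least 2-fold higher were 0 of the 10 genes, beside 1.45% of genes in P and 6.42% in D.

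Ratios between libraries were also taken among cells alike in early-response UMIs. Among thinned cells without any, 656 in P and 130 in D, the log2 ratio of D over P was 0.30 for Hspa1, 0.64 for Dnajb1, 1.17 for Dnaja1, 1.70 for Hsph1 and 0.54 for Hsp90aa1. In the same cells Hspb1 was at -0.42, and the constitutive Hspa5 at 0.92, Hspa8 at 0.39 and Hsp90ab1 at -0.48. Hspa5 was thus above Hspa1, Dnajb1 and Hsp90aa1 in this class. Among cells with 3 to 5, 2504 in P and 1108 in D, a class chosen after the data were seen, the ratio was 0.98 for Hspa1, 0.54 for Dnajb1, 1.46 for Dnaja1, 1.95 for Hsph1 and 0.79 for Hsp90aa1. There Hspb1 was at -0.44, Hspa5 at 0.65, Hspa8 at 0.46 and Hsp90ab1 at -0.38. On the CPM scale Dnajb1, at 1.06 over all cells, came to less than 2-fold in both classes, and Hsph1 and Dnaja1 to more. In cells without early-response UMIs, Hsph1 rested on 14 UMIs in P and 9 in D, and Dnajb1 on 55 and 17. No intervals and no share of all genes were taken for these ratios, so the side of 2-fold is not settled. The 0.30 of Hspa1 is below the median shift of 0.42 between the libraries.

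The division by early-response UMIs was repeated inside clusters, a choice made after the values over all cells were seen. Cells with at least 6 early-response UMIs were set against those with at most 2. Dnajb1 was higher in 7 of 7 clusters, with an interval above 0 in 5, and its log2 ratios ran from 0.12 in P3 (-1.64 to 1.55) to 1.60 in D0 (1.07 to 2.18). In D0 it was at 52.7 CPM in 271 cells with few early-response UMIs and at 159 CPM in 1602 cells with many. In P2 it was at 34.3 and 97.0 CPM. Hspa8 was lower in 7 of 7 clusters, with an interval below 0 in 6, and its ratios ran from -0.44 to -0.06. Hspa1 was higher in 3 of 7, with no interval above 0 and 1 below.

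**Figure D5:**
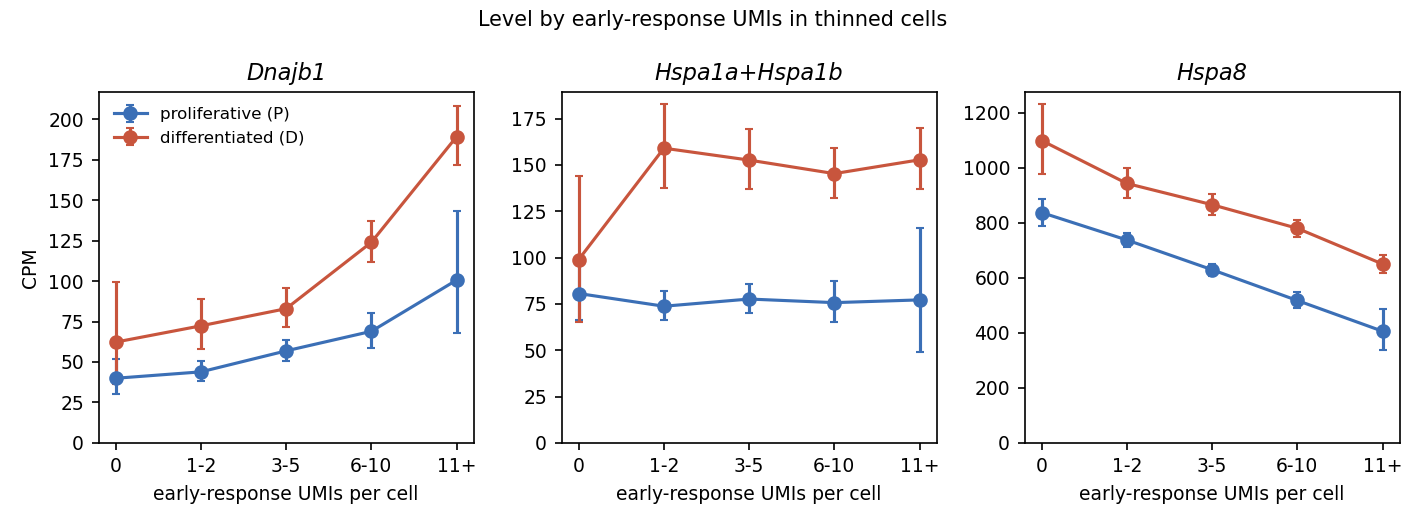
Level in CPM (axes from 0) of Dnajb1, of Hspa1a and Hspa1b summed and of Hspa8 in thinned cells grouped by their early-response UMIs, with 95% Poisson intervals, in P (blue) and D (red). Dnajb1 went from 62.3 to 189 CPM over the classes of D and from 39.9 to 101 CPM over those of P, while Hspa8 ran from 1099 to 650.0 CPM and from 837 to 406 CPM.

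Mitochondrial share moved with some members and was followed in cells with over 800 genes, as CPM of non-mitochondrial UMIs. In P, Hspa1 was at 74.9 CPM (66.5 to 84.1) in cells with up to 4% mitochondrial UMIs, 84.9 (80.7 to 89.2) from 4% to 8%, 104 (93.0 to 116) from 8% to 12% and 115 (78.8 to 163) in the 94 barcodes above 12%. In D it was at 135 CPM (95.9 to 186), 168 (161 to 175), 168 (157 to 180.0) and 179 (152 to 209.9), with overlapping intervals. Each class of D was above the class of P with the same mitochondrial share, except that the intervals overlapped above 12%. Hspa8 went down over the classes in both libraries, from 723 to 439 CPM in P and from 948 to 574 CPM in D, and Hspb1 went from 1505 to 668 CPM in D. The part of mitochondrial share in the ratios between libraries was not tested beyond these classes.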

How the data were processed

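Single-cell RNA sequencing libraries of P and D organoids were made with the 10x Genomics 3′ v3 kit. The deposited files hold whole-number UMI counts per gene and barcode, which the authors made with Cell Ranger 3.0.2 after bcl2fastq 2.19.0 (per the submitters' processing notes) on GRCm38. Nothing had been normalised. No column was left unmapped (0).

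The matrices held 28921755 UMIs in P and 22949953 in D. Cells with over 800 genes and at most 12% mitochondrial UMIs were kept. Counts were summed over cells and scaled to a library total of 1000000 (CPM). Intervals on levels are exact Poisson, those on shares exact binomial (Clopper-Pearson), and those on ratios conditional binomial, all at 95%. They cover counting error only, and cells are not replicates. Whether separate mice or cultures were pooled is not given in the sources used here. Genes with at least 100 UMIs formed each background. For shares and states, cells were thinned at random without replacement to 2100 UMIs. Each library was clustered in Seurat 5.3.0 (R 4.3.3) with 2000 variable features less 13 list genes in P and 9 in D, 25 and 21 principal components and resolution 0.2. Other steps used Python 3.11.15, numpy 2.4.6, scipy 1.17.1, pandas 2.3.3 and scanpy 1.11.5, and were tested on simulated data. Scrublet called 0 doublets in either library, so none were removed.

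The 10 genes and all lists were chosen with earlier results of these data known. Genes named beyond them were list members at least 2-fold apart between libraries (at most 4 in each direction), the 5 genes most correlated with Hspa1 in each library and the 3 leading genes of each cluster. Hsf1, Cct3, Cct4, Hspe1 and Ddit3 are not covered by it and were picked once their values had been seen. Trp63, Itgb4 and Col17a1 define the basal side and are also outside the rule. So are Col1a1, Col3a1, Lum, Pdgfra, Ptprc, Cd74, Fcer1g, Tyrobp, Cdh5 and Kdr, which are named as markers of other cell types. Gene locations came from GENCODE M21 and promoter windows from RefSeq. Cct6a was not analysed here. Alternatives were other cell filters, totals, thinning depths, cluster settings and state thresholds. Leaving out cells above the 95th percentile of UMIs, comparing cells with 3 to 5 early-response UMIs, and comparing early-response classes inside clusters were chosen after seeing the data.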

Additional observations from a re-analysis of the deposited data

Results flagged for a closer look

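The basal side of P and that of D differed from the other clusters of their library in opposite directions for 2 genes, a difference between the libraries that was not tested. The log2 ratio was -0.25 in P and 0.25 in D for Hspb1, and -0.36 in P and 0.41 in D for Hspa5. For Hspb1, P0 and P3 lay below P1 and above P2, and the intervals of D0 and D1 overlapped.

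The barcodes left out by the cell filter, 1376 in P and 2079 in D, also held heat shock transcripts. As CPM of non-mitochondrial UMIs, Hspa1a and Hspa1b summed to 82.3 in the left-out barcodes of P and 176 in those of D, beside 85.7 and 168 in kept cells. Hspb1 was at 968 and 617, beside 1295 and 1009. Hspa8 was at 667 and 492, beside 669.9 and 848. Hsp90ab1 was at 2925 and 1293, beside 2836 and 2239.9. The left-out barcodes of D were thus lower than its kept cells for Hspb1, Hspa8 and Hsp90ab1 and not for Hspa1a and Hspa1b. What these barcodes hold was not tested.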

How the results depend on the processing

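No paired analysis was possible because each group is 1 library, with no test and no replicate to pair or leave out. The inducible median of 0.98 became 0.65 without mitochondrial and ribosomal protein UMIs, 0.56 with the median gene set to 0, 0.54 in cells without early-response UMIs and 0.79 in cells with 3 to 5. The constitutive median of 0.32 became 0.37 with the stricter cell filter, 0.24 with all barcodes, 0.26 as a mean over cells, -0.014, -0.10, 0.39 and 0.46 under those same 4 settings. The ratio of Hspa1a and Hspa1b summed, 0.95, became 0.61, 0.53 and 0.30 under the first 3. Their share of cells became 24.6% in P and 41.7% in D unthinned, 10.8% and 19.9% at 1500 UMIs, 1.45% and 4.23% for at least 2 UMIs, and 15.5% in P with the stricter filter. Hspa8 in cells with at least 3 early-response UMIs over those with 0 came to -0.51 in P. At resolution 0.4 the basal side of D came to 0.32 for Hspa8, -0.066 for Hspa1a and Hspa1b summed, 0.30 for Dnajb1 and -0.0029 for Dnaja1. The causes were not tested. Within libraries 105 of 108 values kept their sign. The others came close to 0 (Dnaja1 as above, Hspa1b in cycling cells of P at 0.0027 with at least 3 proliferation genes, and Dnajb1 on the basal side of D at -0.0074 with the heat shock genes kept among the features). The doublet alternative was not run because no doublets were called, and the depth limits Hspa1a and Hsph1 most.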
